A study of Mus musculus with 55 samples.

Results

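The comparison was of megakaryocyte-erythroid progenitors (MEPs) sorted from the bone marrow of mice labelled Tet2-KO (written Tet2-/- here) and of wild-type (WT) mice. It took 8 of the 55 samples of the series, 4 Tet2-/- and 4 WT libraries, which are the MEP columns numbered 2 to 5 of each genotype in a count table of 46 libraries from 6 sorted populations. The Tet2-/- mice carried a floxed Tet2 allele on both chromosomes and the Mx1-Cre transgene, an interferon-inducible recombinase that is active in the blood system and in other interferon-responsive tissues, and they received poly(I:C) from 4 weeks of age to induce the deletion. All strains were on a C57BL/6 background and the marrow was taken 16 weeks after induction. Whether the WT mice carried Mx1-Cre or floxed alleles, or received poly(I:C), is not given in the sources used here, so the deletion, the transgene and the injections cannot be told apart. MEPs were gated as lineage-negative, cKit-positive, Sca1-negative, CD34-negative cells with low CD16/32, and about 200 cells went into each full-length SMART-seq library by the sample notes, while the study's methods give another number. The replicates were separate mice, as the study states.

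MEPs are bipotent marrow cells that give rise to red cell precursors and to megakaryocytes, the source of platelets. Their programme is run by Gata1 with partners such as Klf1, Gfi1b and Lyl1, and later by genes of globin, haem and iron handling or of platelet receptors. TET2 is a dioxygenase that oxidises 5-methylcytosine, its loss is common in clonal haematopoiesis and myeloid malignancy, and the study profiled marrow populations of these mice to look for factors behind the disturbed blood formation.

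Total counts ranged from 51706556 to 77013352 in WT and from 69168981 to 98282078 in Tet2-/- MEP libraries, and 15576 to 16595 genes had at least 5 counts in a library. Mitochondrial genes took 6.85% to 9.18% of the counts in WT and 8.96% to 9.74% in Tet2-/- MEPs. Kit, the receptor used in the gate, stood at a median of 192 CPM (the count of a gene scaled to a common library total) in WT and 237 in Tet2-/- MEPs, Ly6a (Sca1) stood at 0.238 and 0.156, and Cd34 at 9.36 and 16.999, against 508 in WT common myeloid progenitors (CMPs). Gata1 was at 226 and 257 CPM, against 83.4 in WT CMPs, so the gate genes and Gata1 did not go against the label MEP in either genotype. Summed marker levels of other lineages overlapped between the genotypes for granulocyte-macrophage progenitors (WT 47.2 to 102 CPM, Tet2-/- 43.2 to 130.2), stem cells (111 to 130.2 and 111 to 139) and macrophages (5.05 to 7.37 and 4.11 to 11.005). Those of T and NK cells overlapped too, at 46.3 to 96.9 and 58.0 to 62.6. Those of mast cells and basophils did not overlap, at 39.1 to 46.9 and 48.2 to 57.6, and of their 12 genes 2 were at 0 in every library and 4 passed the filter on low counts. Summed markers of late erythroid cells did not overlap either, at 367 to 714 CPM in WT and 312 to 363 in Tet2-/- MEPs. The part of any of these cells in the results was not tested. B cell markers summed to at most 8.06 CPM and late neutrophil markers to at most 1.55 CPM in any library. In bulk samples, a change in the share of a cell type and a change in RNA per cell cannot be told apart.

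Tet2 itself (chr3:133463679-133545139, minus strand, ENSMUSG00000040943) did not separate the genotypes. Its level was 13.9, 10.5, 13.5 and 10.6 CPM in WT replicates 2 to 5 and 12.02, 12.6, 6.81 and 11.7 CPM in Tet2-/- replicates 2 to 5, an order of replicates kept in every list of values that follows. The groups overlapped, and the log2 fold change was -0.17 ± 0.24 (SE), with an adjusted p of 0.844 by edgeR and 0.514 by a two-sided exact permutation test, whose smallest possible value is 0.0286. The counts are sums over the whole gene, so they include reads from exons outside the deleted part and do not check the genotype labels, which are used as given.

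Far more genes were lower than higher in Tet2-/- MEPs. Of 14934 genes tested with edgeR's quasi-likelihood test, 629 were called lower (4.21% of those tested) and 22 higher (0.147%), where a call needed a Benjamini-Hochberg adjusted p under 0.05 and a change of at least 2-fold. The genes called lower had a median log2 fold change of -1.99, 131 of them were beyond -3, and 375 had a mean of at least 20 CPM. In 628 of the 629 every Tet2-/- library lay below every WT library, against 8.59% of all genes tested that separated in this direction and 4.36% in the other. Without the adjustment or the fold threshold, 9.94% of genes were lower and 6.46% higher at a p under 0.05. Among the 22 genes called higher, 4 had no more than 3 counts in every WT library. Correlations of log2 levels across genes were 0.965 to 0.978 within WT, 0.965 to 0.970 within Tet2-/- and 0.940 to 0.959 between the genotypes. Over all genes tested, the median log2 fold change was 0.05 and 54.2% were higher in sign, and these values stand as the background for the gene lists that follow. Leaving out 1 library at a time kept 10 to 17 of the 22 and 484 to 592 of the 629, a replicate block kept 9 and 499, and a single fit of all 46 libraries kept 6 and 364. DESeq2, the tool of the study, called 117 genes higher and 932 lower.

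**Figure D1:**
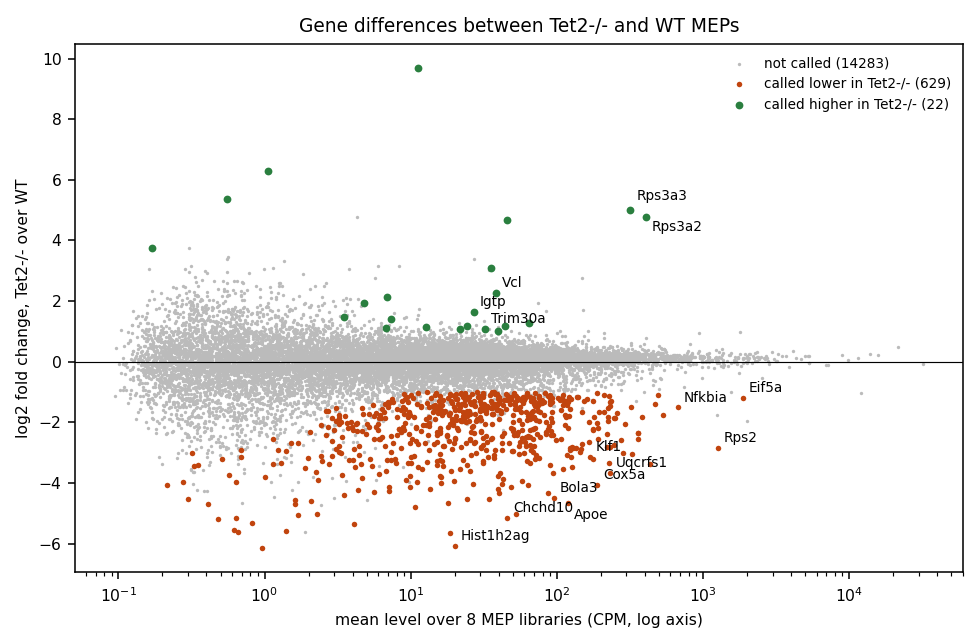
Log2 fold change of each of 14934 genes in Tet2-/- over WT MEPs (vertical axis) against its mean level in the 8 libraries in CPM (horizontal log axis). Orange points are the 629 genes called lower and green points the 22 called higher, and the lower genes reach up to Rps2 and Eif5a, above 1000 CPM, while the most abundant genes hold none.

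Interferon-stimulated genes, the antiviral and immune genes that interferons switch on, were shifted towards higher levels. Of 73 tested members 61 were higher in sign and the median log2 fold change was 0.48, 3 were called higher (4.11%, beside 0.147% of all genes) and 0 lower. The groups separated upward in 14 members and downward in 1, against 4.36% and 8.59% of all genes. Trim30a, a member of the TRIM family of immune regulators, had 23.2, 21.4, 21.7 and 15.8 CPM in WT and 35.7, 40.9, 48.8 and 50.2 CPM in Tet2-/- MEPs. Every Tet2-/- library lay above every WT library (log2 fold change 1.095, SE 0.18, adjusted p = 0.00584).

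Slfn8, of the Schlafen family, had 1.66, 2.64, 2.68 and 0.837 CPM in WT and 9.97, 8.85, 6.36 and 5.42 CPM in Tet2-/- MEPs, with no overlap (log2 fold change 1.95, SE 0.42, adjusted p = 0.0249). Igtp, an immunity-related GTPase that acts on vacuoles of intracellular parasites, had 15.97, 11.99, 13.6 and 10.6 CPM in WT and 27.4, 82.3, 25.3 and 28.8 CPM in Tet2-/- MEPs (log2 fold change 1.65, SE 0.39, adjusted p = 0.0402). Its groups did not overlap either, but Tet2-/- replicate 3 stood at a level far above the other 3. Irgm1, a related GTPase, passed the test under 2-fold (log2 fold change 0.94, SE 0.18, adjusted p = 0.0127). Usp18 and Irf7, both classical targets of type I interferon, had log2 fold changes of 0.98 (adjusted p = 0.347) and 0.54 (adjusted p = 0.465). Isg15 was barely detected, from 0 to 0.764 CPM over the 8 libraries, and Ifit1 ranged from 0.440 to 3.95 CPM with overlapping groups.

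By summed level the interferon-stimulated genes took 7689.8, 6676, 6144 and 5997 CPM in WT and 6827, 12609, 8281 and 7943 CPM in Tet2-/- MEPs, so the genotypes overlapped and Tet2-/- replicate 3 was the highest library. The same library was the highest for the summed genes of antigen presentation by MHC molecules, at 9629.8 CPM, against 4614 to 5518 in the other Tet2-/- libraries and 4474 to 6345 in WT. Leaving out single libraries kept Trim30a past the threshold in all 8 cases, with adjusted p from 0.00532 to 0.0225 by edgeR. These 8 leave-outs ended the call of Slfn8 without WT replicate 2 or Tet2-/- replicate 2, 3 or 4 (up to 0.0777), and that of Igtp without any of the 4 WT replicates or Tet2-/- replicate 5 (up to 0.122). With a replicate block the call of Igtp ended (0.110) and Irgm1 no longer passed the test (0.0788). When all 46 libraries shared 1 fit, Slfn8 and Igtp lost their calls (adjusted p = 0.399 and 0.0901).

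The promoters of the 3 called interferon-stimulated genes each held the letters GAAA, any 2 bases and GAAA again on 1 of the 2 strands, both of which were searched, the core of the interferon-stimulated response element. The windows are 300 bases long, from 250 before to 50 after the start of the gene, from RefSeq (GRCm38.p6), and are shown because these are the members that were called. Capitals mark the match, at base 215 of the window of Trim30a (chr7:104465144-104465443 on the minus strand), base 203 of Slfn8 (chr11:83020761-83021060 on the minus strand) and base 217 of Igtp (chr11:58199306-58199605 on the plus strand).
Trim30a: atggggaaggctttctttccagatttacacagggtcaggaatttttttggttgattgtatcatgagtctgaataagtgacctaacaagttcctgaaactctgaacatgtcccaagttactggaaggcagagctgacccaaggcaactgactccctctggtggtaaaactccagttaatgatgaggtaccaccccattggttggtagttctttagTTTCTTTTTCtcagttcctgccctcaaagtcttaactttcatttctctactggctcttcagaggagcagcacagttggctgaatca
Slfn8: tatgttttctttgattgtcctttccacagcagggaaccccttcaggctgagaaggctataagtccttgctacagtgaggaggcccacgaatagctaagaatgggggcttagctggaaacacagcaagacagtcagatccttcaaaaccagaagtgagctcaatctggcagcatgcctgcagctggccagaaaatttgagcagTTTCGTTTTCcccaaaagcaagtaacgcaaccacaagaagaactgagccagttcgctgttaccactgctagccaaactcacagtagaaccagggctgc
Igtp: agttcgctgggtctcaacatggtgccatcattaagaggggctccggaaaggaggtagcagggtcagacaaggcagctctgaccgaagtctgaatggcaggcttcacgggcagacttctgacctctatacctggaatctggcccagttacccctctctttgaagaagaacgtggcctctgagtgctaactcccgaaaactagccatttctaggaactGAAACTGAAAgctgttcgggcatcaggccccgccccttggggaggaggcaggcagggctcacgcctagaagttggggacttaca
The match was in 3.49% of the 27025 promoters of the table and in 3 of the 13 protein-coding genes called higher that had a promoter there (23.1%), which were these 3. A match is a run of letters and no evidence that a factor bound.

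**Figure D2:**
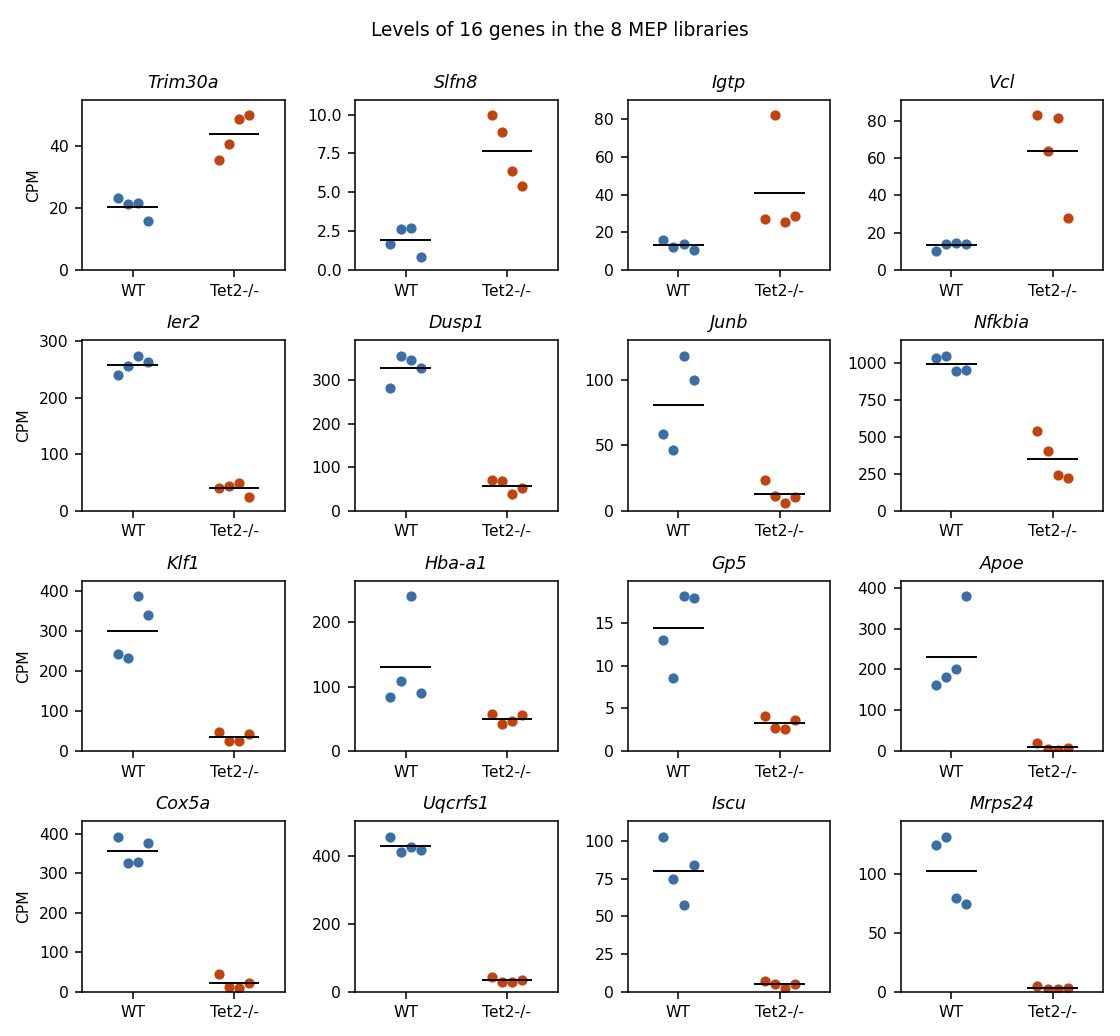
Levels of 16 named genes in the 8 MEP libraries in CPM (vertical axes, linear, from 0), with 1 point per library, WT in blue and Tet2-/- in orange, and a bar at each group's mean. Trim30a, Slfn8, Igtp and Vcl separate upward and the other 12 genes downward, and Tet2-/- replicate 3 stands apart for Igtp at 82.3 CPM.

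Few genes upstream of these targets changed, and those were lower. Of 18 tested interferon ligands, receptors, kinases and factors, 2 receptor subunits were called lower (11.1%, beside 4.21% of all genes), none was called higher by edgeR (3 were higher at an unadjusted p under 0.05), and the median was 0.05. Ifngr2, a chain of the interferon gamma receptor, had 18.8, 16.7, 17.5 and 16.04 CPM in WT and 7.65, 6.28, 7.16 and 4.08 CPM in Tet2-/- MEPs (log2 fold change -1.45, SE 0.23, adjusted p = 0.00508). Ifnar2, a chain of the type I interferon receptor, fell from 37.9 ± 5.92 CPM in WT to 18.9 ± 2.39 in Tet2-/- MEPs (SD, n = 4; log2 fold change -1.01, SE 0.17, adjusted p = 0.00660). Both had separate groups. Of 16 tested genes of cytosolic DNA and RNA sensing, edgeR called none in either direction (0 and 0 passed an unadjusted p under 0.05), and their median was 0.15. Tmem173, which encodes STING, was low in both genotypes, at 1.68, 3.31, 2.91 and 2.28 CPM in WT and 1.41, 2.35, 2.68 and 1.34 CPM in Tet2-/- MEPs (log2 fold change -0.39, adjusted p = 0.763). Ifngr2 and Ifnar2 stayed under an adjusted p of 0.05 in all 8 leave-outs but not when all 46 libraries shared 1 fit, at 0.484 and 0.0603. The log2 fold change of Ifnar2, at -1.01, lies next to the 2-fold threshold, which these fits were not checked for.

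Of 21 tested NF-kB subunits, inhibitors, cytokines and receptors 3 were called lower (14.3%, beside 4.21% of all genes) and 0 higher (1 was higher at an unadjusted p under 0.05), with a median of -0.77. Nfkbia, the inhibitor of NF-kB that NF-kB itself induces, was at 1034, 1049, 947 and 951 CPM in WT and 541, 404, 242 and 219 CPM in Tet2-/- MEPs (log2 fold change -1.502, SE 0.26, adjusted p = 0.00941). Tnfaip3, the ubiquitin-editing brake on NF-kB also called A20, was at 177, 226, 96.3 and 75.1 CPM in WT and 40.8, 12.6, 43.1 and 34.997 in Tet2-/- MEPs (log2 fold change -2.13, SE 0.45, adjusted p = 0.0232). Cxcl2, a chemokine for neutrophils, was at 5.33, 4.51, 4.07 and 5.89 CPM in WT and 0.996, 1.47, 0.643 and 1.01 in Tet2-/- MEPs (log2 fold change -2.24, SE 0.36, adjusted p = 0.00601). In all 3 the groups were separate. Nfkbia and Tnfaip3 restrain NF-kB and Cxcl2 is induced by it. The summed level of the list was 1183 to 1440.2 CPM in WT and 382 to 718 in Tet2-/- MEPs, and Nfkbia alone took most of it in every library. Tnfaip3 lost its call without WT replicate 2 or 3 or Tet2-/- replicate 5 (edgeR adjusted p up to 0.0703) and with a replicate block (0.125). When all 46 libraries shared 1 fit, Cxcl2 and Tnfaip3 lost their calls (0.635 and 0.0516).

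Immediate early genes, which cells switch on within minutes of a stimulus and also during tissue handling, were lower in sign throughout. All 21 tested members were lower in sign, 7 were called lower (33.3%, against 4.21% of all genes) and the median was -1.16. Ier2, a short-lived nuclear protein, had 241, 257, 275 and 263 CPM in WT and 39.5, 43.6, 48.8 and 24.5 CPM in Tet2-/- MEPs (log2 fold change -2.73, SE 0.20, adjusted p = 6.06e-05). Dusp1, the phosphatase that turns off MAP kinases, had 282, 357, 346 and 329 CPM in WT and 69.4, 68.5, 37.8 and 51.5 in Tet2-/- MEPs (log2 fold change -2.53, SE 0.20, adjusted p = 9.18e-05). Junb, a subunit of the AP-1 factor, had 58.6, 46.6, 119 and 100.1 CPM in WT and 23.4, 10.8, 6.02 and 10.3 in Tet2-/- MEPs (log2 fold change -2.68, SE 0.45, adjusted p = 0.00753). Every Tet2-/- library was below every WT library for the 3 genes. Jun, Jund, Klf6 and Ier5 fell too, with log2 fold changes of -1.08, -1.81, -1.39 and -1.48, at adjusted p of 0.00531, 0.00948, 0.0161 and 0.0198 by edgeR. Fos and Egr1, the best known members of the class, did not pass the test and overlapped between the groups, with log2 fold changes of -0.28 (adjusted p = 0.801) and -0.34 (0.596). The summed level was 1289.7 to 1569 CPM in WT and 643, 672, 669 and 302 CPM in Tet2-/- MEPs, with replicate 5 the lowest. The part of sample handling in this difference was not tested. Without Tet2-/- replicate 2 the median was -1.66, Klf6 lost its call without WT replicate 3 or Tet2-/- replicate 4 (up to 0.0568), Ier5 without WT replicate 2 or 3 or Tet2-/- replicate 3 (up to 0.0625), and Jund with a replicate block (0.0675). Ier5 also lost it when all 46 libraries shared 1 fit (0.160).

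Of the erythroid programme, Klf1 fell while Gata1 did not pass the test. Klf1, the zinc-finger factor that drives globin and other red cell genes (chr8:84901928-84905291, plus strand, ENSMUSG00000054191), had 244, 234, 387 and 339.8 CPM in WT and 47.4, 24.4, 24.5 and 41.5 CPM in Tet2-/- MEPs. The groups lay far apart (log2 fold change -3.13, SE 0.28, adjusted p = 2.03e-04), with the call kept in all 8 leave-outs. Gata1, its upstream partner, had 231 ± 20.1 CPM in WT and 251 ± 26.2 in Tet2-/- MEPs (SD, n = 4; log2 fold change 0.12, adjusted p = 0.705), and Gfi1b, a repressor in the same network, had a log2 fold change of -0.10 (adjusted p = 0.862). Lyl1, a helix-loop-helix factor related to Tal1, was the other called member of 22 erythroid and megakaryocytic factors, at 11.8, 11.1, 28.3 and 24.3 CPM in WT and 1.94, 0.763, 4.30 and 5.18 in Tet2-/- MEPs (log2 fold change -2.62, SE 0.59, adjusted p = 0.0317). It lost the call without WT replicate 2, 4 or 5 or Tet2-/- replicate 2 or 4 (edgeR adjusted p up to 0.0921), and Klf1 lost it when all 46 libraries shared 1 fit (0.529). Of the 22, 2 were called lower (9.09%, beside 4.21% of all genes), the median was -0.10 and 9 were higher in sign. Spi1, the myeloid factor PU.1 that opposes Gata1, was named after its values were seen, and it had 7.97, 7.72, 7.92 and 7.03 CPM in WT and 0.956, 0.895, 0.175 and 0.668 CPM in Tet2-/- MEPs (log2 fold change -3.45, SE 0.50, adjusted p = 0.00300).

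Among 26 tested globin and red cell effector genes only the alpha-globin pair was called (7.69%, beside 4.21% of all genes called lower), both lower, and the median was 0.08. Ermap, an erythroid membrane protein, passed the test in the other direction under 2-fold (log2 fold change 0.49, SE 0.10, adjusted p = 0.0225), but not in 5 of the 8 leave-outs (up to 0.0742), when all 46 libraries shared 1 fit or with a replicate block. Hba-a1 had 84.05, 109, 241 and 90.3 CPM in WT and 57.6, 41.7, 46.04 and 55.4 CPM in Tet2-/- MEPs (log2 fold change -1.38, SE 0.33, adjusted p = 0.0398), and Hba-a2 had a log2 fold change of -1.47 ± 0.31 (adjusted p = 0.0232). The groups were separate, and WT replicate 4 was the highest library for both. These genes have near-identical sequences, so their counts were also summed, which gave -1.41 ± 0.32 (adjusted p = 0.0323). By adjusted p alone, the Hba-a1 call ended without WT replicate 3 or any of the 4 Tet2-/- replicates (up to 0.122). The Hba-a2 call ended without Tet2-/- replicate 3 or 4 (up to 0.0788), and with a replicate block they had 0.121 and 0.0777. The 2-fold threshold is not part of these losses, and WT replicate 4, the highest library, raises the WT mean of both genes. Neither was called when all 46 libraries shared 1 fit.

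Genes of haem synthesis, iron uptake and iron-sulphur clusters held 5 members called lower of 27 tested (18.5%, beside 4.21% of all genes), with a median of 0.05. Iscu, the scaffold on which iron-sulphur clusters are built, had 103, 75.2, 57.7 and 84.2 CPM in WT and 6.86, 5.08, 2.21 and 5.14 CPM in Tet2-/- MEPs (log2 fold change -4.04, SE 0.35, adjusted p = 1.63e-04). Glrx5, which passes clusters on, had 150.1, 128, 136 and 124 CPM in WT and 41.4, 29.2, 29.9 and 36.5 in Tet2-/- MEPs (log2 fold change -1.97, SE 0.15, adjusted p = 6.06e-05). No Tet2-/- library reached a WT library for either gene, and Tet2-/- replicate 2 was the highest of its group for each. Slc48a1, a haem transporter, and Fech, which inserts iron into haem, fell as well, at log2 fold changes of -1.35 and -1.31 (adjusted p = 7.68e-04 and 0.00323 by edgeR). The iron-regulatory proteins rose, under 2-fold. Ireb2 had 36.2, 41.5, 32.1 and 40.5 CPM in WT and 63.7, 73.6, 64.2 and 87.2 CPM in Tet2-/- MEPs (log2 fold change 0.94, SE 0.15, adjusted p = 0.00510), and Aco1, which is the cytosolic aconitase when it holds a cluster, had a log2 fold change of 0.67 ± 0.13 (adjusted p = 0.0183). Tfrc, the transferrin receptor, did not pass the test (0.34, adjusted p = 0.158) although its groups were separate. Aco1 no longer passed the test without WT replicate 2, 4 or 5 or Tet2-/- replicate 3 or 5 (up to 0.0659). Nor did it pass when all 46 libraries shared 1 fit or with a replicate block.

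On the megakaryocytic side 2 of 24 tested platelet genes were called lower (8.33%, beside 4.21% of all genes) and 0 higher (0 at an unadjusted p under 0.05), with a median of -0.48 and 18 lower in sign. The median was -0.20 without WT replicate 4, -0.28 without Tet2-/- replicate 5 and -0.74 without Tet2-/- replicate 2. Both encode subunits of the platelet receptor for von Willebrand factor. Gp5 had 13.02, 8.59, 18.1 and 17.96 CPM in WT and 4.08, 2.70, 2.57 and 3.65 CPM in Tet2-/- MEPs (log2 fold change -2.14, SE 0.30, adjusted p = 0.00285). Gp1bb had 1.06, 1.43, 6.04 and 3.97 CPM in WT and 0.161, 0.176, 0.0877 and 0 in Tet2-/- MEPs (log2 fold change -4.56, SE 1.03, adjusted p = 0.0319). The summed list spanned 242 to 492 CPM in WT and 160.2 to 359 CPM in Tet2-/- MEPs and so overlapped. Gp1bb lost its call without WT replicate 4 or 5 or Tet2-/- replicate 2, 3 or 4 (edgeR adjusted p up to 0.114), and Gp5 kept it in all 8 leave-outs but not when all 46 libraries shared 1 fit (0.621). Gp1bb also lost it in that fit (0.424), with a replicate block (0.176) and with no filter on low counts (0.0579).

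A few nuclear genes of mitochondria fell steeply, beside medians near 0 for the lists that hold them. Uqcrfs1, the Rieske iron-sulphur subunit of respiratory complex III, had 458, 414, 429 and 419.7 CPM in WT and 42.5, 27.3, 29.7 and 35.2 CPM in Tet2-/- MEPs (log2 fold change -3.67, SE 0.15, adjusted p = 3.8e-06). Cyc1, the cytochrome c1 of the same complex, had 422, 365, 395 and 371 CPM in WT and 70.1, 54.4, 46.8 and 49.5 in Tet2-/- MEPs (log2 fold change -2.81, SE 0.14, adjusted p = 1.22e-05). Cox5a, a subunit of cytochrome c oxidase, had 393, 326, 329 and 377 CPM in WT and 43.7, 11.4, 8.04 and 22.7 in Tet2-/- MEPs (log2 fold change -4.05, SE 0.50, adjusted p = 0.00136). In each of them the highest Tet2-/- library was far below the lowest WT library. Ndufab1, the acyl carrier protein of complex I, fell by 3.47 on the log2 scale (edgeR adjusted p = 0.00228). These were the 4 called members of 74 tested nuclear genes of oxidative phosphorylation, a share of 5.41% beside 4.21% of all genes called lower. Of the 74, 57 were higher in sign and the median was 0.12. None of the 13 protein genes of the mitochondrial genome was called by edgeR in either direction (0 and 0 at an unadjusted p under 0.05), and their median was 0.07. All 4 calls held in every one of the 8 leave-outs.

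Mitochondrial ribosomal proteins also held large falls, with 8 of 78 called lower (10.3%, beside 4.21% of all genes) and 56 higher in sign (median 0.11). Mrps24 had 125, 132, 79.4 and 74.3 CPM in WT and 4.84, 2.45, 2.38 and 2.96 CPM in Tet2-/- MEPs (log2 fold change -5.005, SE 0.33, adjusted p = 3.55e-05). Mrps34, Mrps26, Mrps30, Mrps35, Mrps15 and Mrpl3 had log2 fold changes of -2.92, -3.01, -2.41, -2.73, -3.22 and -2.21, with adjusted p of at most 0.00725 by edgeR and separate groups. Mrpl57 had a log2 fold change of -1.198 (adjusted p = 0.0280), and its call ended in 7 of the 8 leave-outs, all but that of Tet2-/- replicate 2 (up to 0.0871). Mrpl57 and Mrps30 lost their calls when all 46 libraries shared 1 fit (0.0748 and 0.200). Mitochondrial genes outside these complexes fell as well. Chchd10, a protein of the cristae, had 108, 58.4, 91.7 and 97.4 CPM in WT and 3.35, 1.47, 2.13 and 2.86 in Tet2-/- MEPs (log2 fold change -5.16, SE 0.32, adjusted p = 2.68e-05). Bola3, which helps to load iron-sulphur clusters, had 199, 198, 158 and 177 CPM in WT and 9.07, 7.80, 5.98 and 9.58 in Tet2-/- MEPs (log2 fold change -4.49, SE 0.18, adjusted p = 3.71e-06). Fdx1, a ferredoxin, fell by 4.65 on the log2 scale (adjusted p = 3.65e-05), and Idh2, the isocitrate dehydrogenase whose mutant form blocks TET2, was at 142 ± 12.2 CPM in WT and 30.7 ± 9.08 in Tet2-/- MEPs (SD, n = 4; log2 fold change -2.21, adjusted p = 2.2e-04). No Tet2-/- library of any of these 4 genes reached a WT library.

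In the cytosolic translation machinery 2 of 86 ribosomal protein rows were called lower (2.33%), under the 4.21% of all genes. Of 37 translation factors, 4 initiation factors were called lower (10.8%). Rps2, of the small ribosomal subunit, had 2403, 2071, 2341 and 2136 CPM in WT and 467, 288, 188 and 302 CPM in Tet2-/- MEPs, with no overlap (log2 fold change -2.85, SE 0.24, adjusted p = 1.43e-04). Eif5a, the factor that carries hypusine and helps ribosomes through difficult stretches, had 2795, 2228, 2677 and 2754 CPM in WT and 1296, 1283, 845 and 1165 in Tet2-/- MEPs (log2 fold change -1.19, SE 0.14, adjusted p = 0.00107). Eif3f, Eif5 and Eif3j1, further initiation factors, had log2 fold changes of -1.83, -1.81 and -1.35 (edgeR adjusted p = 2.16e-04, 0.0446 and 0.00378). Eif5 lost its call in 7 of the 8 leave-outs, all but that of Tet2-/- replicate 5 (up to 0.125), which stood at 175 CPM beside 41.0 to 52.7 in the other Tet2-/- libraries. The median was 0.11 over 37 translation factors, of which 26 were higher in sign, and 0.12 over 86 rows of cytosolic ribosomal proteins, of which 69 were.

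The other called ribosomal rows were near-identical copies and Rpl34. Rps3a3 and Rps3a2, annotated as processed pseudogenes of the ribosomal protein gene Rps3a1, were much higher in Tet2-/- MEPs. Rps3a3 had 15.5, 23.1, 20.3 and 17.5 CPM in WT and 658, 568, 621 and 630.3 CPM in Tet2-/- MEPs, and Rps3a2 had 25.2, 35.2, 25.2 and 29.4 CPM in WT and 849.8, 709, 823 and 759 CPM in Tet2-/- MEPs. Their log2 fold changes of 5.02 and 4.77 had the smallest adjusted p of the comparison (5e-07 by edgeR), and Gm5586, another such row, had a log2 fold change of 4.67. Rps3a1 went from 3026 ± 147 CPM in WT to 2089 ± 109.6 in Tet2-/- MEPs (SD, n = 4; -0.53, adjusted p = 0.00154). With the 4 rows summed the level was 3078 ± 152 CPM in WT and 3581 ± 211 in Tet2-/- MEPs, a log2 fold change of 0.22 ± 0.07 that did not pass the test (adjusted p = 0.126). Reads of these copies can be split between rows in the counting, so the separate values are uncertain. In each of the other 5 populations the lowest Tet2-/- library of Rps3a2 and of Rps3a3 was likewise above the highest WT library. Rpl34 had 533, 106, 454 and 442 CPM in WT and 104, 109, 109 and 107 CPM in Tet2-/- MEPs (log2 fold change -1.84, SE 0.40, adjusted p = 0.0276), so WT replicate 3 stood at the level of the Tet2-/- libraries, and its exact permutation p was 0.114. Without WT replicate 3 its adjusted p was 3.28e-05 by edgeR, and it was not called when any of the other 7 libraries was left out (up to 0.0838). The library labelled WT replicate 3 was the lowest WT library of Rpl34 in all 6 populations, for example at 65.05 CPM in CMPs beside a WT median of 386.

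Replication-dependent histone genes fell in part, with a wide spread in WT. Of 63 tested genes of the histone clusters 21 were called lower (33.3%, beside 4.21% of all genes) and 0 higher (3 were higher at an unadjusted p under 0.05 by edgeR), and the median was -0.43, which became -0.25 without WT replicate 4 and -0.68 without Tet2-/- replicate 5. Hist1h2ag, the gene with the largest fall at a mean of at least 20 CPM, had 10.9, 4.27, 78.7 and 64.02 CPM in WT and 0.785, 0.147, 0.249 and 1.03 CPM in Tet2-/- MEPs (log2 fold change -6.07, SE 1.08, adjusted p = 0.00973). Hist1h2ap had 58.5, 31.6, 317 and 254 CPM in WT and 12.2, 2.97, 4.47 and 13.2 in Tet2-/- MEPs (log2 fold change -4.32, SE 0.84, adjusted p = 0.0152). The groups did not overlap, but WT replicates 4 and 5 were several times higher than WT replicates 2 and 3. Genes of the H2A cluster are near-identical, and their 15 rows summed gave 179, 88.9, 956 and 767 CPM in WT and 34.6, 9.20, 12.99 and 40.3 CPM in Tet2-/- MEPs (-4.36 ± 0.84, adjusted p = 0.0155). The 21 called genes include several of these rows, so the share of 33.3% counts near-identical rows separately and they are not independent calls. Hist1h2ap, Hist1h2ao and Hist1h2aj lost their calls without Tet2-/- replicate 4 (edgeR adjusted p up to 0.0545), Hist1h2ae in 5, Hist1h2an in 4 and Hist2h3c2 in 4 of the 8 leave-outs (up to 0.0682, 0.0758 and 0.0677), and Hist1h2ag in none. Outside the clusters H2afj and H2afx, the variant that marks DNA breaks, fell, at log2 fold changes of -4.19 and -3.34 (adjusted p = 5.41e-04 and 0.00233).

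In the cell cycle, cyclins A2 and E1 fell while most mitosis genes were higher in sign. Of 39 mitosis genes 32 were higher in sign with a median of 0.32, and 12 separated upward, where 4.36% of all genes did. Only cyclin A2 was called (2.56%, beside 4.21% of all genes called lower), and it was lower. Ccna2 had 218, 164, 289 and 236 CPM in WT and 108, 103, 78.5 and 96.5 CPM in Tet2-/- MEPs (log2 fold change -1.23, SE 0.18, adjusted p = 0.00309), and Ccne1, the cyclin of entry into S phase, had 106, 67.5, 131 and 105 CPM in WT and 38.9, 27.3, 26.6 and 33.6 in Tet2-/- MEPs (log2 fold change -1.696, SE 0.22, adjusted p = 0.00159). Both pairs of groups were separate. Kif4, Tpx2, Smc2 and Mad2l1, of the spindle and condensed chromosomes, passed the test under 2-fold, with log2 fold changes of 0.82, 0.57, 0.40 and 0.38 (edgeR adjusted p = 0.0193, 0.0381, 0.0456 and 0.0335). Of the 8 leave-outs, Kif4 no longer passed in 3, Tpx2 in 7, and Smc2 and Mad2l1 in all 8 (up to 0.134). None of these 4 passed when all 46 libraries shared 1 fit or with a replicate block. Of 34 replication genes 29 were higher in sign (median 0.18). Rfc5, a subunit of the clamp loader, was the called member (2.94%, beside 4.21% of all genes), at a log2 fold change of -1.76 (adjusted p = 0.00702). Ccna2 and Ccne1 kept their calls in all 8 leave-outs and lost them when all 46 libraries shared 1 fit (0.660 and 0.870).

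Of 46 DNA repair and checkpoint genes 4 were called lower (8.70%, beside 4.21% of all genes) and 34 were higher in sign (median 0.24). Xpa, which verifies damage in nucleotide excision repair, had 15.5, 22.2, 20.01 and 16.2 CPM in WT and 1.79, 0.705, 1.40 and 1.46 CPM in Tet2-/- MEPs (log2 fold change -3.76, SE 0.32, adjusted p = 1.43e-04). Nbn, of the complex that senses breaks, had a log2 fold change of -1.53 (adjusted p = 0.00154), and Ung, the uracil glycosylase, had -1.43 (0.0125), with H2afx the remaining member. Among ubiquitin enzymes of the damage response Ube2d3 had 701, 631, 674 and 720.2 CPM in WT and 398, 263, 226 and 152 CPM in Tet2-/- MEPs, with no overlap (log2 fold change -1.39, SE 0.25, adjusted p = 0.00960), and Ube2d1 had a log2 fold change of -1.85 (0.0120). Rnf138 and Ube2a, which the study follows in stem cells, had log2 fold changes of -0.26 (adjusted p = 0.375) and -0.02 (0.976). Of 22 p53 targets and survival genes 2 were called lower (9.09%, beside 4.21% of all genes). Bax, which permeabilises mitochondria in apoptosis, fell from 93.8 ± 11.5 CPM in WT to 38.6 ± 7.08 in Tet2-/- MEPs (SD, n = 4, log2 fold change -1.28, SE 0.16, adjusted p = 0.00132). Phlda3, an inhibitor of Akt, had a log2 fold change of -2.66 (0.0154). Phlda3 lost its call without WT replicate 2 (0.0611), and with a replicate block Ung and Ube2d1 had adjusted p of 0.0800 and 0.0531. When all 46 libraries shared 1 fit, Nbn, Ung, Ube2d1 and Phlda3 lost their calls (adjusted p from 0.0546 to 0.845). Among all 32 proteasome subunits edgeR called 0 in either direction, 8 and 3 passed an unadjusted p under 0.05, and the median was 0.19.

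**Figure D3:**
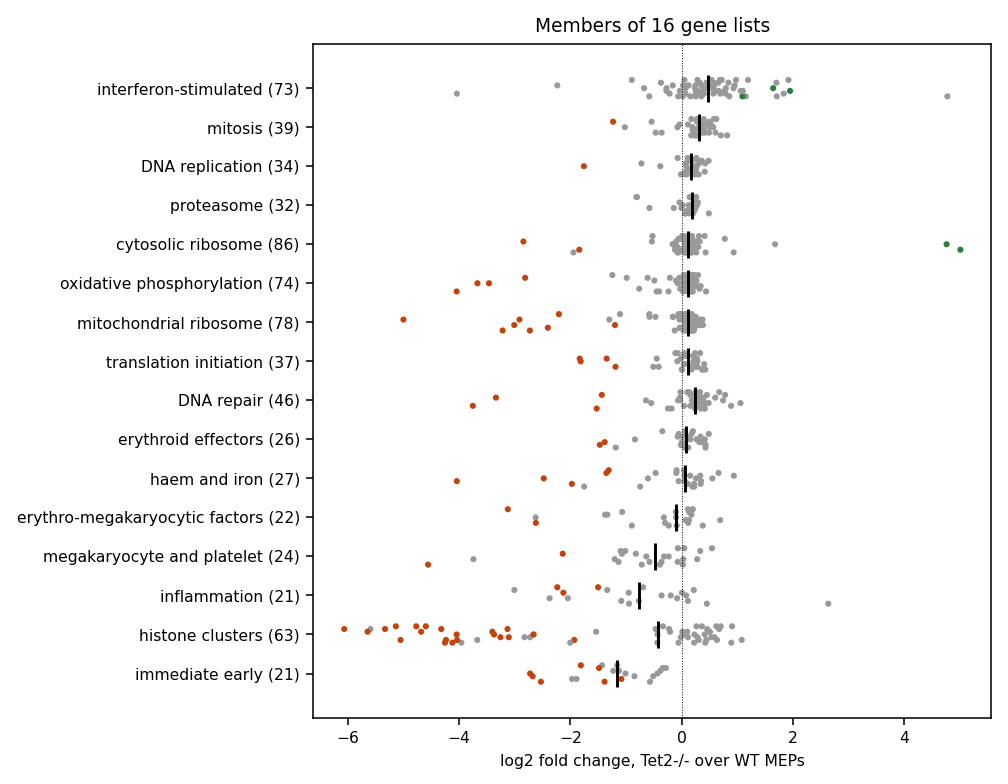
Log2 fold change in Tet2-/- over WT MEPs (horizontal axis) of the tested members of 16 gene lists, with their number in brackets, each point a gene, green if called higher, orange if called lower and grey otherwise, and a black bar at the median. The interferon-stimulated list has its median at 0.48 and the immediate early list at -1.16, and most other lists sit near 0 with a tail of called members to the left.

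Further genes with the largest falls had other roles. Apoe, the lipid carrier of lipoproteins, had 161, 181, 200.4 and 379 CPM in WT and 19.5, 6.14, 2.998 and 7.45 CPM in Tet2-/- MEPs (log2 fold change -4.67, SE 0.59, adjusted p = 0.00157). Nenf, the secreted protein neudesin, had 54.2, 38.8, 46.6 and 47.8 CPM in WT and 3.23, 0.587, 2.43 and 1.75 in Tet2-/- MEPs (log2 fold change -4.53, SE 0.46, adjusted p = 4.42e-04). Rnaset2a and Rnaset2b, near-identical genes of a lysosomal ribonuclease, summed to 200.5 ± 26.4 CPM in WT and 12.3 ± 2.11 in Tet2-/- MEPs (SD, n = 4; -4.02 ± 0.17, adjusted p = 6.91e-06). All Tet2-/- libraries were below all WT libraries for these genes. Cela1, an elastase, had 86.5, 6.16, 108 and 64.2 CPM in WT and 3.07, 2.69, 2.75 and 2.97 CPM in Tet2-/- MEPs (log2 fold change -4.51, SE 0.72, adjusted p = 0.00533), with WT replicate 3 close to the Tet2-/- level and the call lost when all 46 libraries shared 1 fit (0.0805).

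Of the 22 genes called higher, 5 were list members and the others had diverse roles. Vcl encodes vinculin, which ties adhesion sites to actin, and it had 10.04, 14.2, 14.6 and 14.2 CPM in WT and 83.1, 63.8, 81.3 and 27.8 CPM in Tet2-/- MEPs (log2 fold change 2.27, SE 0.33, adjusted p = 0.00304). Its lowest Tet2-/- library was above its highest WT library, and the call held in all 8 leave-outs (edgeR adjusted p up to 0.0150) but not when all 46 libraries shared 1 fit (0.126). Bola1, a mitochondrial relative of Bola3, had 3.47, 4.89, 12.3 and 8.47 CPM in WT and 72.8, 73.5, 11.4 and 94.7 in Tet2-/- MEPs (log2 fold change 3.11, SE 0.63, adjusted p = 0.0193), so Tet2-/- replicate 4 stood among the WT libraries and the groups overlapped. Map2k7, a kinase upstream of JNK, had 1.66, 2.21, 3.78 and 2.45 CPM in WT and 4.17, 11.1, 14.99 and 15.03 in Tet2-/- MEPs (log2 fold change 2.15, SE 0.44, adjusted p = 0.0195). Taf1, of the general factor TFIID, Ap5m1, of an endosomal adaptor, Erlin2, of the endoplasmic reticulum, and Shoc2, a scaffold of RAS signalling, had log2 fold changes of 1.195, 1.16, 1.09 and 1.001 (adjusted p = 0.0470, 0.0368, 0.0219 and 0.0290). The calls of Bola1, Map2k7, Taf1, Ap5m1, Erlin2 and Shoc2 each ended in 5 to 7 of the 8 leave-outs, with adjusted p up to 0.134. With a replicate block those of Bola1, Taf1, Ap5m1, Erlin2 and Shoc2 ended. All but that of Ap5m1 ended when all 46 libraries shared 1 fit.

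The remaining genes called higher were less abundant or less well known. Hipk2, a kinase that acts on p53, Mc2r, the receptor of adrenocorticotropin, Jmjd7, a hydroxylase, and Irgq, a GTPase-like autophagy receptor, had log2 fold changes of 1.11, 1.13, 1.47 and 1.41 (edgeR adjusted p = 0.0291, 0.0355, 0.0214 and 0.0281), and each lost its call in 6 of the 8 leave-outs, when all 46 libraries shared 1 fit and with a replicate block. Gm42047 had 35.2, 36.3, 33.2 and 45.3 CPM in WT and 90.1, 109, 75.5 and 90.03 CPM in Tet2-/- MEPs (log2 fold change 1.28, SE 0.15, adjusted p = 0.00115), a call that ended when all 46 libraries shared 1 fit (0.169). In WT, 4 of the 22 had at most 3 counts in every library, and 1 of them was Nnt, described with the libraries that hold its reads. Mok, a MAP kinase-like kinase, had 0.915, 0.338, 1.13 and 2.03 CPM in Tet2-/- MEPs and 0 counts in WT, which is at least 24.3-fold higher against a floor of 3 counts per library. Gm45104 was at least 46.8-fold and Gm9694 at least 7.45-fold higher on the same floor. With a replicate block the calls of Mok, Gm45104 and Gm9694 ended, with all 46 libraries in 1 fit those of Mok and Gm9694, and Gm9694 also lost its call without Tet2-/- replicate 3, 4 or 5.

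The genes called lower were more frequent among transcripts with a GC-rich start, a feature that the calls did not use. Over 7195 protein-coding genes with a mean of at least 10 CPM, of which 6.28% were called lower, the share called lower was 1.77% to 3.49% where the first 200 bases of the transcript held under 65% G and C, 7.72% from 65% to 70%, 17.3% from 70% to 75% and 11.2% at 75% or more. The median GC content of this stretch was 70.5% for the genes called lower, 62% for those not called and 58.2% for the 10 called higher. Transcripts of the genes called lower were also shorter, with a median of 2281.5 bases against 3366, and 7.05% of transcripts under 1 kb and 12.7% of those of 1 to 2 kb were called against 1.42% of those of 6 kb or more. Across genes, which are not independent replicates, Spearman's rho of the log2 fold change was -0.19 with GC content and 0.14 with length. Taking off the trend on GC content in each library left 574 genes lower, 573 of them in common with the 629, and 27 higher, 20 in common with the 22. Taking off the trends on GC content and length left 544 lower (534 in common) and 21 higher (16 in common). The part of library preparation in this pattern was not tested.
The promoter of Cox5a is shown (chr9:57520982-57521281 on the plus strand, RefSeq, GRCm38.p6), with 35 CG dinucleotides, set in capitals, and 65% G and C in 300 bases, because Cox5a fell steeply and TET2 acts on methylated CG. The GC content of transcript starts above is not that of promoters.
Cox5a: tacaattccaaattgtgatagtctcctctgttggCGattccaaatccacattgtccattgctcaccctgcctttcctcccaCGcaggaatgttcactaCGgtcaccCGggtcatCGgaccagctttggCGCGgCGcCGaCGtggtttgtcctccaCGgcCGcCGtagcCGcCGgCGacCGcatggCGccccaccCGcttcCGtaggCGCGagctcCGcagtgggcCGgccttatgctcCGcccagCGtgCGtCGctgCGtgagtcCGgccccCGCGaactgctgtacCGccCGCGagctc
A CG was in 94.2% of all 27025 promoters of the table, with a median of 7 per promoter. In the promoters of 5424 tested genes with a mean of at least 10 CPM that were not called it was in 99.7%, with a median of 22, and fewer than 80% of the genes called lower matched the table, so no such values are given for them. Methylation was not measured in these libraries.

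**Figure D4:**
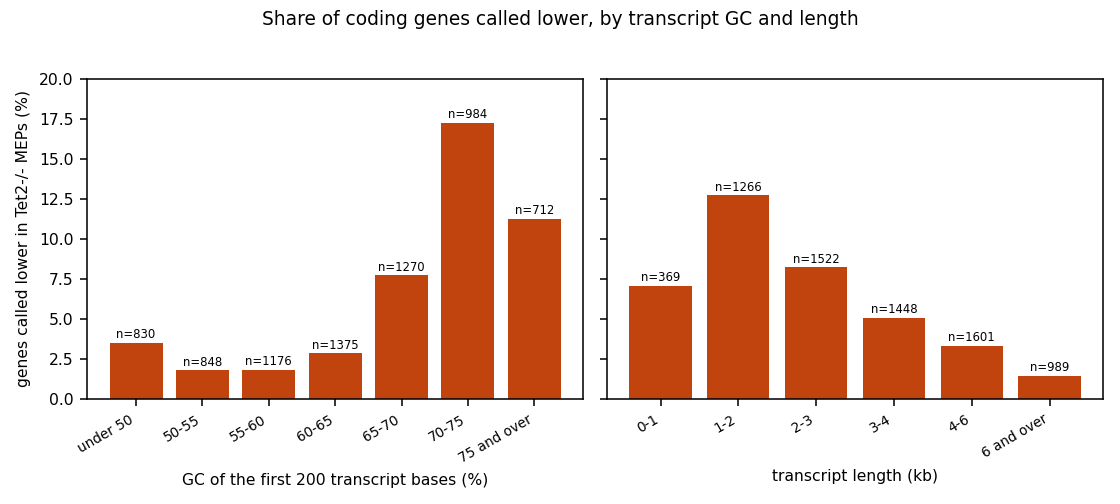
Share of coding genes called lower in Tet2-/- MEPs (vertical axis, percent) by GC content of the first 200 transcript bases (left) and by transcript length in kb (right), for 7195 genes with a mean of at least 10 CPM, with the number of genes over each bar. The share rises to 17.3% at 70% to 75% GC and declines from 12.7% at 1 to 2 kb to 1.42% at 6 kb or more.

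Most genes called lower in MEPs were also called lower in CMPs, and none was in the stem cells. Of the 625 that were tested in CMPs, 435 were called lower there, where 3.92% of all genes were, with a median log2 fold change of -1.68. In granulocyte-macrophage progenitors (GMPs) 305 of 623 were called lower, beside 4.06% of all genes, with a median of -1.17. In long-term stem cells (LT-HSCs), short-term stem cells (ST-HSCs) and common lymphoid progenitors (CLPs) edgeR called none of them lower (38, 39 and 38 were lower at an unadjusted p under 0.05), and the medians were -0.11, -0.12 and -0.16, in comparisons that called 0% of all genes lower. None of these comparisons shares a library with that of MEPs, but the numbers 2 to 5 may stand for the same mice in each population. Ier2 fell in CMPs as in MEPs (-2.64, adjusted p = 4.44e-04) and had 0.31 in LT-HSCs. On the same log2 scale Uqcrfs1 had -3.12 in CMPs, -2.60 in GMPs and 0.35 in LT-HSCs, and Klf1 had -1.51 in CMPs (adjusted p = 0.0113). Trim30a, Slfn8 and Igtp had log2 fold changes of 0.49, 1.04 and 0.51 in CMPs and 0.75, 1.29 and 0.61 in LT-HSCs, none of them past the threshold. Of the 22 genes called higher in MEPs, 20 were tested in CMPs, where 6 were called higher beside 0.654% of all genes, and 20 in GMPs, where 6 were, beside 0.308%. In LT-HSCs 4 of 17 were called higher, in a comparison that called 4 genes higher in all (0.0245%), in ST-HSCs 3 of 17 (0.0185%) and in CLPs 1 of 16 (0.00766%). The 22 include the copies Rps3a2, Rps3a3 and Gm5586, which separated upward in all 6 populations and whose separate values are uncertain.

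The effect in MEPs was tested against the mean effect in the other 5 populations in 1 edgeR model of all 46 libraries, to ask which changes differ in size between MEPs and the rest. Of 22360 genes, 112 had a lower effect in MEPs (0.501%) and 4 a higher one (0.0179%) at an adjusted p under 0.05. Of the 112, 102 were among those called lower in MEPs, beside 4.21% of all genes tested there. Both tests use the same MEP libraries, so this overlap is no separate evidence. Uqcrfs1 differed by -2.71 ± 0.29 (SE, adjusted p = 4.68e-07), Cox5a by -3.43 ± 0.47 (4.34e-05), Apoe by -4.07 ± 0.86 (0.0125) and Mrps24 by -3.52 ± 0.68 (0.00501) on the log2 scale. Ap5m1, chosen by its presence in both tests, was called higher in MEPs and had a higher effect there than elsewhere, with a difference of 1.52 ± 0.31 (0.00849). The count of lower effects was 29 without Tet2-/- replicate 4, 57 without replicate 3 and 62 without replicate 5. Against CMPs alone no gene differed at an adjusted p under 0.05 by edgeR, while 485 were higher and 589 lower at an unadjusted p under 0.05, or 247 and 362 with a term for the mouse.

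A row of the table held counts in every Tet2-/- library of MEPs, CMPs and GMPs, the populations with these falls, and in some other libraries. Nnt, the mitochondrial nicotinamide nucleotide transhydrogenase, a gene known to carry a deletion in the C57BL/6J substrain, has 2 overlapping rows. The first (ENSMUSG00000116207, chr13:119335528-119408952, minus strand) had 0 counts in all 4 WT libraries and 11.2, 28.7, 36.7 and 13.2 CPM in Tet2-/- MEPs, which is at least 495-fold higher against a floor of 3 counts per WT library. The second (ENSMUSG00000025453, chr13:119335448-119408997) had 32.9, 46.9, 30.9 and 15.97 CPM in WT and 5.85, 6.21, 5.21 and 3.36 CPM in Tet2-/- MEPs (log2 fold change -2.61, edgeR adjusted p = 0.00182). Summed, the rows had 32.95, 46.9, 30.9 and 15.97 CPM in WT and 17.04, 34.9, 41.9 and 16.5 CPM in Tet2-/- MEPs, which overlap (-0.20 ± 0.39, adjusted p = 0.899). Over the 46 libraries the first row held counts in 17, which were all 12 Tet2-/- libraries of MEPs, CMPs and GMPs, 2 Tet2-/- libraries of LT-HSCs, 2 of CLPs and 1 WT library of CLPs. The genes called lower in MEPs with a mean of at least 10 CPM had, library by library, a median deviation from WT of -2.17 to -1.45 on the log2 scale in Tet2-/- MEPs, -1.79 to -1.31 in Tet2-/- CMPs and -1.20 to -1.05 in Tet2-/- GMPs. It was -0.36 to -0.10 in the 2 Tet2-/- LT-HSC libraries with the row against -0.59 to 0.01 in the 2 without, and 0.18 to 0.26 in the 2 Tet2-/- CLP libraries with it against 0.32 to 0.38 in the 2 without. In the WT CLP library with the row it was -0.43, below the other 3 WT CLP libraries (-0.0024 to 0.39). In MEPs, CMPs and GMPs no WT library held the row, so the row and the genotype cannot be told apart there. The part of this row, or of what it marks, in the difference between the genotypes was not tested.

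**Figure D5:**
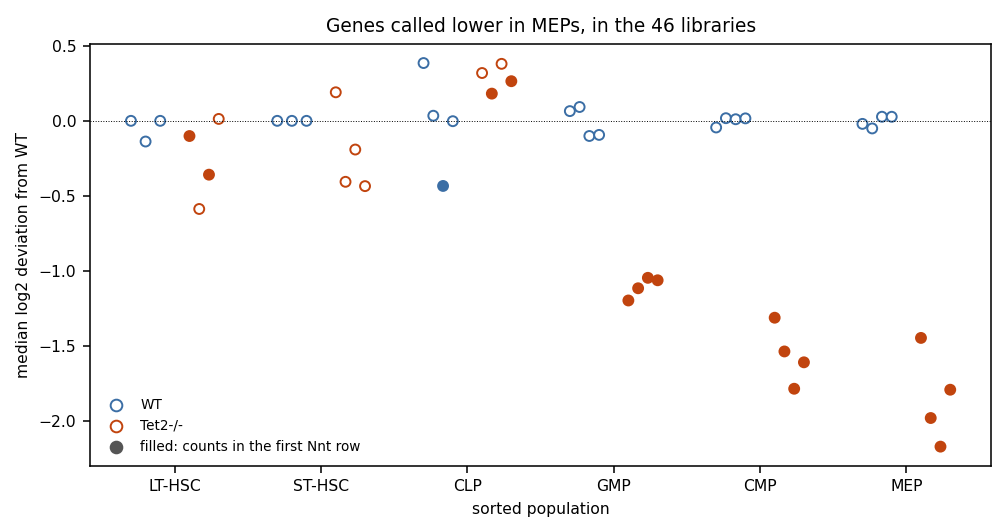
Median log2 deviation from WT (vertical axis) of the genes called lower in MEPs with a mean of at least 10 CPM, 1 point per library of 6 populations, WT in blue and Tet2-/- in orange, filled where the first Nnt row had counts. Tet2-/- libraries of GMPs, CMPs and MEPs lie from -2.17 to -1.05 and are all filled, and those of stem cells and CLPs lie from -0.59 to 0.38.

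Near Tet2 on chromosome 3, 5 of 49 tested genes within 5 Mb were called lower (10.2%, against 4.21% of all genes) and 0 higher (by edgeR), and within 10 Mb 5 of 84 were (5.95%). They were Ppa2, Ube2d3, Cisd2, Pla2g12a and Rpl34, with log2 fold changes of -2.76, -1.39, -1.01, -1.12 and -1.84. Ppa2, a mitochondrial pyrophosphatase, had 133, 132, 107 and 117 CPM in WT and 16.6, 20.8, 13.1 and 21.5 CPM in Tet2-/- MEPs (log2 fold change -2.76, SE 0.18, adjusted p = 3.65e-05). Pla2g12a and Rpl34 were lowest among WT libraries in replicate 3, at 57.0 and 106 CPM. Cisd2 lost its call in 5 leave-outs, Pla2g12a in 6 and Rpl34 in 7 of the 8, with adjusted p up to 0.0621, 0.0823 and 0.0838, and Ppa2 and Ube2d3 kept theirs in all 8. By chromosome the share called lower ranged from 1.79% on the X to 7.45% on chromosome 8.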

How the data were processed

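The deposited table holds raw counts of reads per gene, 55421 genes in 46 libraries, made by the authors from reads trimmed with Trim Galore 0.6.7 per the labels, where the study's methods name another version, and aligned with HISAT2 on mm10. The labels also list mm9 without a role. The counting program and annotation are not given in the sources used here, and 0 columns were left unmapped. Depth was 51706556 to 98282078 counts per MEP library. The 4 Tet2-/- and 4 WT MEP libraries were compared in edgeR 4.0.16 (R 4.3.3, limma 3.58.1) with filterByExpr, TMM scaling, quasi-likelihood test, prior count 2, Benjamini-Hochberg adjustment over all genes, and a call at an adjusted p under 0.05 with at least 2-fold. DESeq2 1.42.0, the tool of the study, was an alternative. CPM values were scaled over the 8 MEP libraries, or over the 46 where populations are compared and for Kit, Ly6a, Cd34, Gata1 and the MEP markers given beside them. The test was tried on simulated counts. Some genes are not reported here. P-values measure the spread between libraries, which holds that between mice and that of sorting and library preparation. Fits of all 46 libraries treat libraries that may come from the same mouse as independent, except where a mouse term is named. Genes with 3 or fewer counts in every library of a group were set to that floor for folds, and limits from counts cover counting error only. The comparison, the genes and the lists were chosen with earlier results of these data known. Named were Tet2 and 4 genes the study follows in stem cells, up to 15 called genes of largest change in each direction (10 higher and 15 lower) with a mean of at least 20 CPM, called list members (of long lists the 4 of largest size), and genes called in MEPs and in the difference between populations. Uncalled list members, genes under 2-fold, the remaining genes called higher, the neighbours of Tet2, Spi1 and the Nnt and Rps3a rows were chosen after their values were seen. GC content and length came from the longest transcript of each gene (GENCODE vM21, GRCm38), as did coordinates, and promoters from RefSeq on GRCm38.p6. Figures were drawn with matplotlib 3.10.9.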

Additional observations from a re-analysis of the deposited data

Results flagged for a closer look

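Single libraries stood apart from the other 3 of their group in 22 of 306 groups of values looked at (7.19%), by a gap to the nearest library beyond Dixon's 95% critical value, which chance gives in about 1 in 20 groups. Tet2-/- replicate 2 stood above the other 3 libraries for Bax, Gm45051 and Gm28112, at 49.2, 1.02 and 0.0201 CPM. In Tet2-/- replicate 3, Igtp stood above the other 3 libraries, at 82.3 CPM. Tet2-/- replicate 4 stood below the other 3 libraries for Kif4 and Tet2, at 29.4 and 6.81 CPM. In Tet2-/- replicate 5, Hist2h3c2, Eif5, Usp18 and the summed oxidative phosphorylation genes stood above the other 3 libraries, at 0.0378, 175, 31.1 and 29626 CPM. Tet2-/- replicate 5 stood below the other 3 libraries for Slc48a1 and the summed immediate early genes, at 33.7 and 302 CPM. In WT replicate 2, Vcl, Eif5 and the summed erythroid and megakaryocytic factors stood below the other 3 libraries, at 10.04, 232 and 2079 CPM. WT replicate 3 stood above the other 3 libraries for Klf6, at 79.3 CPM. In WT replicate 3, Rfc5 and the summed mitosis genes stood below the other 3 libraries, at 126 and 4221 CPM. WT replicate 4 stood above the other 3 libraries for Hba-a2, Hba-a1 and Irf7, at 99.8, 241 and 6.76 CPM. In WT replicate 5, Mrps30 stood above the other 3 libraries, at 106 CPM. The values of Gm28112 and Hist2h3c2 are at or under the floor of 3 counts, and the other 3 Tet2-/- libraries were at 0.

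The effect of genotype in MEPs differed from its mean in the other 5 populations, by the interaction term of the edgeR model of 46 libraries at an adjusted p under 0.05, for 27 of the genes described here, 26 of them with a lower and 1 with a higher effect in MEPs (log2 scale). Among mitochondrial genes, the difference was -2.71 for Uqcrfs1, -3.43 for Cox5a, -1.99 for Cyc1, -2.86 for Ndufab1, -3.39 for Fdx1, -3.09 for Bola3 and -1.67 for Idh2. Among mitochondrial ribosomal proteins, the difference was -2.10 for Mrps34, -2.10 for Mrps26, -2.77 for Mrps15, -3.52 for Mrps24 and -2.18 for Mrps35. Among histones, the difference was -3.27 for H2afj, -2.66 for H2afx and -4.91 for Hist1h2ag. It was -2.66 for Rps2, -1.87 for Ier2, -2.60 for Rnaset2a, -3.17 for Ostf1, -3.02 for Rnaset2b and -1.81 for Rab11a. For Apoe, Tpgs1, Gm28112, Spi1 and Gm45051 it was -4.07, -3.64, -6.00, -2.47 and -3.24. The value of Gm28112, whose Tet2-/- MEP libraries are at the floor, depends on the prior count and is not a measured size. The higher effect was that of Ap5m1, at 1.52. Against CMPs alone 0 genes differed at this threshold, so none of these genes was shown to differ between MEPs and CMPs. Of the genes called lower in MEPs, 435 of the 625 tested in CMPs were called lower there too.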

How the results depend on the processing

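Genes called higher numbered 22 in the main test, 117 with DESeq2, 9 with a replicate block, 112 at an unadjusted p under 0.05 and at least 2-fold and 98 with no fold threshold, and 20 to 31 in the fits that leave out 1 library, of which 10 to 17 were among the 22. Genes called lower numbered 629, 405 with all 46 libraries in 1 fit, 973 at an unadjusted p under 0.05 and at least 2-fold, 932 with DESeq2 and 748 with no fold threshold, and 497 to 736 without 1 library, of which 484 to 592 were shared. RLE scaling, no filter on low counts, a mean of at least 10 CPM, and the corrections for GC content and for GC content and length gave 16 to 27 genes higher and 529 to 631 lower. With a replicate block 517 genes were lower, 499 of them among the 629, and with all 46 libraries in 1 fit 6 of the 22 remained. Deviations of same-numbered WT and Tet2-/- libraries correlated at 0.041, 0.026, 0.050 and 0.031. These were the best correlation of each WT number, but did not reach 0.1, the value set for a block. The main test therefore left the shared numbers out. Whether the numbers mark a link between libraries was not tested, and the fits with a block show the calls if they do. No cause was tested for the calls lost under the block. All 22 and 629 genes kept their sign in each of these settings in which they were tested. Of 107 called genes described here, 47 kept direction and threshold throughout.

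Effects in MEPs against the other 5 populations were higher for 2 genes with a mouse term and for 2 to 5 without 1 library, and lower for 29 to 157. Against CMPs 1 gene was higher without WT replicate 2 and 0 in the other fits. Copies summed turned the first Nnt row from 9.69 to -0.20 and Rps3a1 from -0.53 to 0.22. Uncalled genes that changed sign were Ifit1 (-0.20 to 0.73 without 1 library), Isg15 (-0.55 to 1.13 without 1 library) and Ube2a (0.00301 with a replicate block, 0.18 with the GC correction, 0.28 with GC and length, and -0.18 to 0.078 without 1 library). Medians of the lists of interferon signalling, nucleic acid sensing, haem and iron, the mitochondrial genome and ubiquitin enzymes, all near 0, changed sign in at least 1 setting. The median of immediate early genes reached -1.66 without Tet2-/- replicate 2 and that of inflammation -0.90 without WT replicate 5. Those of platelet genes and histones ranged from -0.74 to -0.20 and from -0.68 to -0.25 without 1 library, and that of p53 targets from -0.32 to -0.059, and was -0.50 with a mean of at least 10 CPM. The causes were not tested. With 4 libraries a group and 51706556 to 98282078 counts each, genes at a few counts per library have the widest errors.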

Other observations

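Lists of general cell machinery not described above are set beside the 4.21% of all genes called lower. Of 52 spliceosome and splicing regulator genes 2 were called lower (3.85%), with 35 of the 52 higher in sign and a median of 0.11. They were Srsf6, an SR protein, and Snrpf, a core snRNP protein, at log2 fold changes of -1.49 and -1.65 (edgeR adjusted p = 4.81e-04 and 0.0464). Of 27 heat shock and chaperone genes 2 were called lower (7.41%), and the median was 0.04. They were Dnajc3, a co-chaperone of the endoplasmic reticulum, and Dnajb1, a partner of Hsp70, at log2 fold changes of -1.11 and -1.21 (adjusted p = 8.8e-04 and 0.0179). Small GTPases leaned the other way, with 28 of 41 lower in sign, 11 separated downward and 4 called lower (9.76%), beside 8.59% of all genes separated downward and 4.21% called lower. Rab11a, which recycles endosomes, had 131, 130.3, 79.9 and 93.6 CPM in WT and 33.9, 22.8, 17.1 and 18.5 CPM in Tet2-/- MEPs (log2 fold change -2.23, SE 0.26, adjusted p = 9.75e-04). Rab4a, of early recycling, Rhob, of endosomes and stress responses, and Rab28 had log2 fold changes of -1.97, -1.41 and -1.17 (adjusted p = 0.00315, 0.0195 and 0.0225). Snrpf, Dnajb1, Rhob and Rab28 lost the call in 7, 3, 4 and 3 of the 8 fits that leave out a library, with adjusted p up to 0.121, 0.0586, 0.0627 and 0.0717. Rab4a, Rab28, Dnajb1 and Snrpf lost it when all 46 libraries shared 1 fit, and Dnajb1, Rhob and Snrpf with a replicate block. None of 21 glycolytic enzymes was called by edgeR, and 6 were higher and 1 lower at an unadjusted p under 0.05.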
